A study of Mus musculus with 20 samples.

Results

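The 48 genes described here encode Wnt ligands (19 genes), R-spondins (4), the R-spondin receptors Lgr4, Lgr5 and Lgr6 (3), Frizzled receptors (10), the co-receptors Lrp5 and Lrp6 (2), secreted binders of Wnt proteins (5), Dickkopf proteins (4) and the feedback target Axin2 (1). Membership was set by gene symbol, from the 18194 genes that the array names. The gene set and its tests were chosen with earlier results of these data known. Total RNA came from number 4 mammary glands, free of tumor when removed, of 20 female FVB/N mice, 1 gland and 1 array per animal. All 20 mice were heterozygous for NRL-TGFα, a transgene in which the neu-related lipocalin promoter drives transforming growth factor alpha in the mammary gland, and glands without the transgene were not analysed here. At 8.5 weeks of age each mouse received an implant under the skin that released 5 mg of tamoxifen, a drug that binds the estrogen receptor, or held carrier alone (placebo). The gland was taken at 20.5 to 21 weeks, 4 weeks after treatment had ended, and tumor formation in the animal was followed for up to 2 years. Tumors later arose in 7 placebo and 3 tamoxifen animals, and 3 placebo and 7 tamoxifen animals stayed free of them.

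Wnt proteins are secreted signals that bind a Frizzled receptor together with Lrp5 or Lrp6 and thereby stabilise β-catenin, which works with TCF/LEF proteins on target genes such as Axin2. R-spondins, through Lgr receptors, keep Frizzled proteins on the cell surface, while Sfrp proteins and Wif1 bind Wnts outside the cell and Dickkopf proteins act mainly on the co-receptors. In the mammary gland, Wnt4 is produced by hormone-sensing luminal cells in response to progesterone, and Wnt4 and Rspo1 act on basal cells.

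Tamoxifen animals that stayed free of tumors were set against placebo animals that developed them. Of the 30 members that could be tested, 7 were called lower in the tamoxifen glands (limma, adjusted p under 0.05) and none was called higher. Of all tested genes, 2.40% were called lower and 4.63% in either direction. The 7 members were the ligands Wnt2 and Wnt4, the receptors Fzd2, Fzd3, Fzd6 and Fzd7, and the secreted binder Sfrp2. The promoters of the 4 among them that the RefSeq promoter table holds are shown because these genes fell in the same comparison. Each line gives the 250 bases before the transcription start that the table lists in GRCm38.p6, 5′ to 3′ on the strand of the gene, with capitals marking matches on either strand to the GC box GGGCGG and the CCAAT box CCAAT, which may overlap themselves.
Sfrp2: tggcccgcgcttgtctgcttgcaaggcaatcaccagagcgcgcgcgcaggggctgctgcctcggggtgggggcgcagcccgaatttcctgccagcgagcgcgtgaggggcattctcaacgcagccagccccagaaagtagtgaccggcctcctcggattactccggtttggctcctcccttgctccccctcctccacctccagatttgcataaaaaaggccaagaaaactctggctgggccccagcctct
Wnt2: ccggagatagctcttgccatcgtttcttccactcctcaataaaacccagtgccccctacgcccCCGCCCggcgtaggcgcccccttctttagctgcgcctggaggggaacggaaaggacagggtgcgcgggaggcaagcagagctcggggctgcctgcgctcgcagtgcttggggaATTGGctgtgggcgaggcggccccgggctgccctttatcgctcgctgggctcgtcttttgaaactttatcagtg
Fzd7: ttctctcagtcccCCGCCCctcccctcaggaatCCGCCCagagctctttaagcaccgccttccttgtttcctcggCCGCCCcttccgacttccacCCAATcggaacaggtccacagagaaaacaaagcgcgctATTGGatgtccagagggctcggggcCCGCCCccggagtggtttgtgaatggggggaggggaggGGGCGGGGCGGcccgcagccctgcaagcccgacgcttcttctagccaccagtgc
Wnt4: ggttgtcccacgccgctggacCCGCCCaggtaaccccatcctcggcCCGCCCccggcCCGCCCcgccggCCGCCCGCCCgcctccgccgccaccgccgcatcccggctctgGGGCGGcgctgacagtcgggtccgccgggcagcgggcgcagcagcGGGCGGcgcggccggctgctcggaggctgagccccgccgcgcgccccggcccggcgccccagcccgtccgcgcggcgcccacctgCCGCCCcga
The windows lie at chr3:83766071-83766320 on the plus strand for Sfrp2, chr6:18030446-18030695 on the minus strand for Wnt2, chr1:59481897-59482146 on the plus strand for Fzd7 and chr4:137277385-137277634 on the plus strand for Wnt4. The GC box letters occurred 8 times in the Wnt4 window, 6 times in that of Fzd7, 1 time in that of Wnt2 and 0 times in that of Sfrp2. They were found in 32.7% of all 32851 windows of this length in the table, and the CCAAT letters in 33.8%. The TCF/LEF letters CTTTGAA or CTTTGAT and the TATA box TATAAA, searched on both strands, had no match in the 4 windows shown, and were found in 7.48% and 12.4% of all windows. Among the 31 members with an entry, 3 had a TCF/LEF match, namely Dkk1, Wnt5b and Wnt11. The genes themselves lie at chr3:83765750-83774314 (Sfrp2), chr6:17985474-18032772 (Wnt2), chr1:59482147-59486955 (Fzd7) and chr4:137277635-137299501 (Wnt4), with Fzd2 at chr11:102604431-102608058, Fzd3 at chr14:65192441-65262463 and Fzd6 at chr15:39006149-39038192. The windows of Sfrp2 and Wnt2 lie inside the annotated gene spans, so the listed start is not the outermost start of these 2 genes.

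All values below are the deposited log2 values of the array, on which a difference of 1 is a doubling. Each gene is represented by its brightest probe set, so levels of different genes are not set against each other. Tests covered the 12499 genes, 30 of them members, that rose above 6.85 in 3 or more glands, 6.85 being the median over the whole table. The 20 arrays had medians of 6.82 to 6.89 and no 2 were identical. The first principal component held 31.9% of the variance, and placebo animals 7, 8 and 9, which all developed tumors, lay farthest out on it. Differences between the tamoxifen glands without tumor and the placebo glands with tumor are also given without these 3 glands where the member was called or was high in them. Because whole glands were measured, fewer cells of a type and less RNA per cell cannot be told apart.

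The 18 members that did not pass the filter were Wnt1, Wnt2b, Wnt3, Wnt3a, Wnt8a, Wnt8b, Wnt9a, Wnt10a, Wnt16, Rspo2, Rspo3, Rspo4, Fzd9, Lrp5, Wif1, Dkk1, Dkk2 and Dkk4. Their group means spanned little: Wnt1 lay between 6.18 and 6.23, Wnt2b between 5.37 and 5.48, Wnt3 between 3.78 and 3.84, and Wnt3a between 6.30 and 6.35. Group means of Wnt8a were 4.85 to 4.89, of Wnt8b 6.04 to 6.11, of Wnt9a 5.81 to 5.89, of Wnt10a 6.63 to 6.70 and of Wnt16 6.05 to 6.20. The R-spondins other than Rspo1 were as flat, with group means of 6.18 to 6.28 for Rspo2, 5.37 to 5.43 for Rspo3 and 5.82 to 5.90 for Rspo4. Fzd9 had group means of 6.67 to 6.72 and Lrp5 of 5.16 to 5.26. Among the Dickkopf genes, Dkk1 (5.16 to 5.21) and Dkk4 (5.55 to 5.64) barely moved, and Dkk2 ranged from 6.02 to 7.06 over single glands. Wif1 was the exception and is described with Rspo1.

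**Figure D1:**
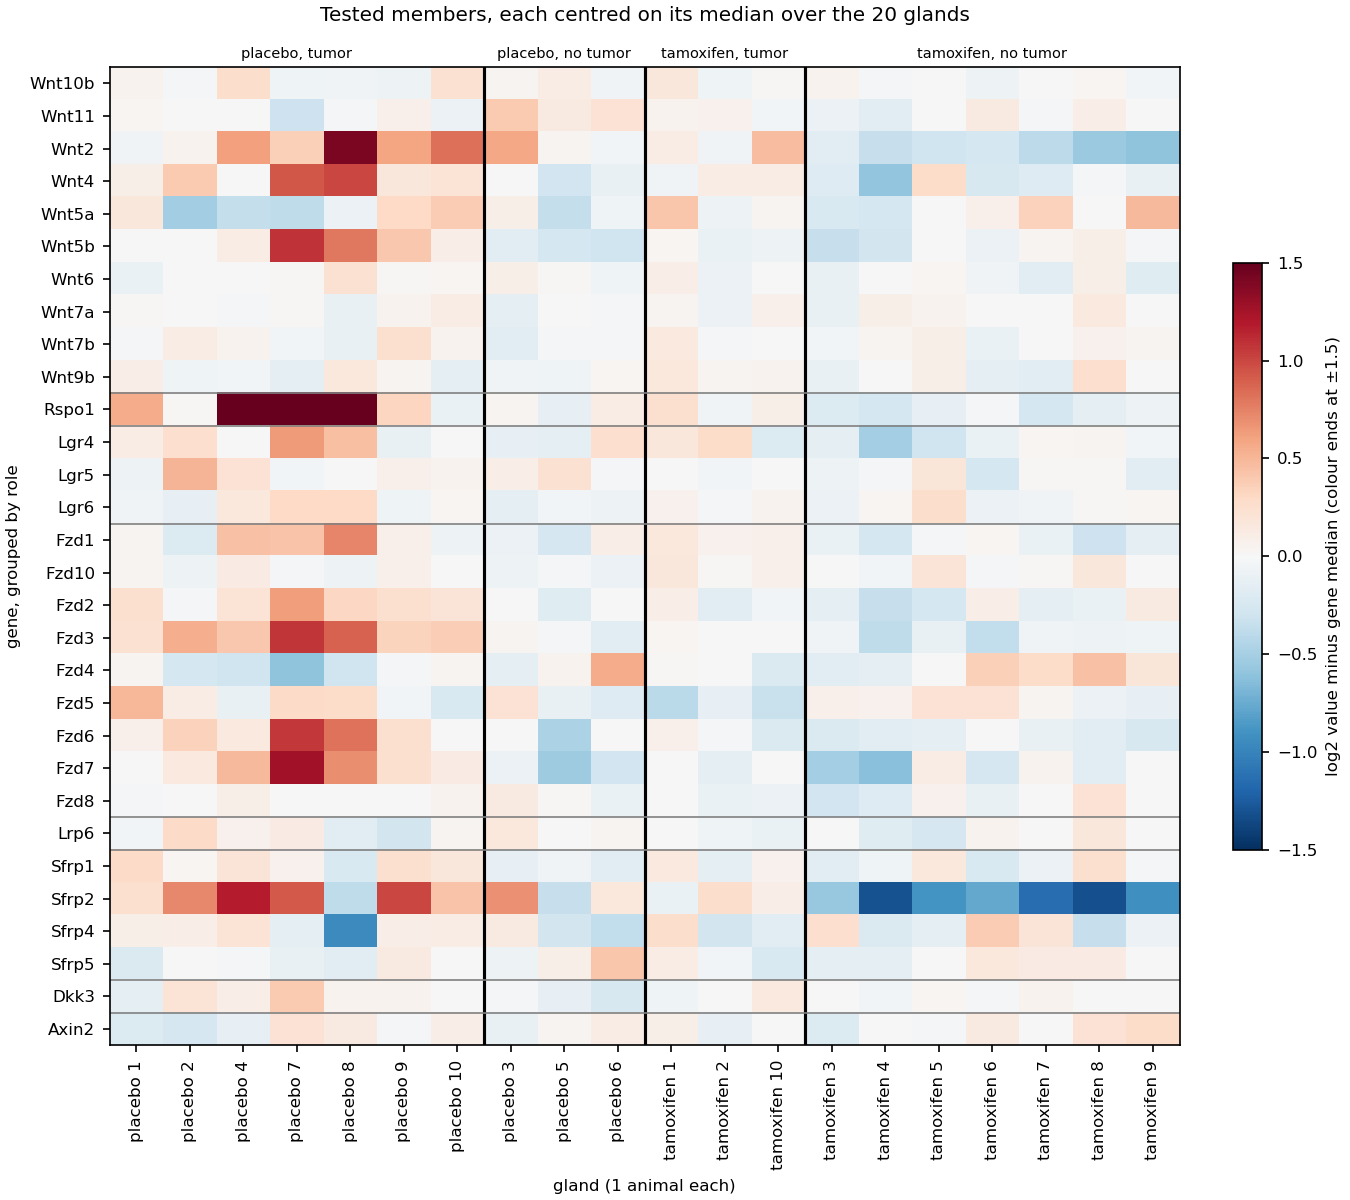
Log2 value of each tested member (rows, by role) in each of the 20 glands (columns, by group), minus the median of that gene, with colours ending at 1.5 in either direction. Wnt4, Wnt5b, Rspo1, Fzd3, Fzd6 and Fzd7 stand out in placebo glands 7 and 8, and Sfrp2 is low in the 7 tamoxifen glands without tumor.

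The comparison of 7 tamoxifen glands without later tumor against 7 placebo glands with later tumor sets the animals in which the drug and the outcome went together against their opposite. limma called 7 of 30 members (23.3%), against 4.63% of all 12499 genes at an adjusted p under 0.05. All 7 were lower, where 2.40% of all genes were called lower. The 2 groups differ in both treatment and outcome, which cannot be told apart in this comparison. The median difference was -0.07 over the 30 tested members and 0.01 over all tested genes. Over all 48 members and 18194 genes without a filter the medians were -0.03 and 0.01, and 6 members were called against 3.14% of genes, with Wnt4 at an adjusted p of 0.051.

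Among the ligands, 2 of 10 tested were called. Wnt2, a ligand made mainly by stromal cells, had a lowest, median and highest value of 7.32, 7.97 and 8.79 in placebo glands with tumor and of 6.77, 7.03 and 7.21 in tamoxifen glands without. It read 7.95, 7.41 and 7.33 in the 3 placebo glands without tumor and 7.49, 7.32 and 7.83 in the 3 tamoxifen glands with tumor. The 7 tamoxifen glands without tumor therefore lay below each of the other 13. The difference between the 2 groups of 7 was -0.92 ± 0.17 (SE), or 1.89-fold (limma, adjusted p = 0.0064).

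Wnt4, the progesterone-responsive luminal ligand, had a lowest, median and highest value of 7.53, 7.76 and 8.55 in placebo glands with tumor and of 6.96, 7.36 and 7.82 in tamoxifen glands without. It read 7.56, 7.26 and 7.44 in placebo glands without tumor and 7.50, 7.66 and 7.66 in tamoxifen glands with tumor. The groups of 7 overlapped, and the highest values, 8.48 and 8.55, came from placebo glands 7 and 8. Wnt4 was 1.46-fold lower (-0.55 ± 0.15, adjusted p = 0.044), and its second probe set gave -0.50 (adjusted p = 0.020). With each of the 20 animals left out in turn, this call was made least often of the 7, in 5 fits, with adjusted p from 0.029 to 0.095.

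Wnt5b, a ligand best known for signalling without β-catenin, came next and was not called (-0.44 ± 0.14, adjusted p = 0.077), with 7.17 to 8.26 in placebo glands with tumor and 6.82 to 7.26 in tamoxifen glands without. Without placebo animals 7, 8 and 9 the difference was -0.14 ± 0.076 (adjusted p = 0.48). The other tested ligands gave differences between -0.08 (Wnt6) and 0.13 (Wnt5a), none called. Their group means were 6.79 to 6.87 for Wnt6, 7.49 to 7.72 for Wnt5a, 8.91 to 8.99 for Wnt7a, 8.43 to 8.55 for Wnt7b, 6.67 to 6.79 for Wnt9b, 6.95 to 7.01 for Wnt10b and 7.03 to 7.32 for Wnt11.

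The Frizzled receptors held most of the calls, with 4 of 9 tested genes called lower and differences from -0.71 to 0.33. Of all tested genes, 2.40% were called lower. Fzd3 had a lowest, median and highest value of 7.65, 7.82 and 8.48 in placebo glands with tumor and of 7.03, 7.33 and 7.36 in tamoxifen glands without. Placebo glands without tumor read 7.45, 7.38 and 7.26, and tamoxifen glands with tumor 7.45, 7.41 and 7.42. The 7 placebo glands that preceded tumors thus lay above all 13 others. Fzd3 was 1.63-fold lower in the tamoxifen glands without tumor (-0.71 ± 0.11, adjusted p = 0.0012). This rests on 1 of its 6 probe sets, since the other 5 did not pass the filter, and with the mean of all 6 the gene fell below the filter and was not tested.

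For Fzd7, a receptor active in mammary basal cells, the lowest, median and highest values were 8.27, 8.51 and 9.53 in placebo glands with tumor and 7.65, 8.10 and 8.39 in tamoxifen glands without. Placebo glands without tumor read 8.19, 7.75 and 7.99, and tamoxifen glands with tumor 8.28, 8.14 and 8.28. The groups of 7 overlapped between 8.27 and 8.39. The difference was -0.62 ± 0.16, or 1.54-fold (adjusted p = 0.038), and a dimmer second probe set gave -0.11 (adjusted p = 0.27).

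Fzd6 had 7.96, 8.20 and 9.02 as its lowest, median and highest value in placebo glands with tumor and 7.71, 7.80 and 7.96 in tamoxifen glands without. It read 7.96, 7.48 and 7.96 in placebo glands without tumor and 8.03, 7.94 and 7.74 in tamoxifen glands with tumor. The groups of 7 met at 7.96, and Fzd6 was 1.44-fold lower (-0.53 ± 0.14, adjusted p = 0.034), while another probe set gave 0.06.

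Fzd2 had 7.24, 7.50 and 7.89 in placebo glands with tumor and 6.92, 7.13 and 7.40 in tamoxifen glands without, given as lowest, median and highest. It read 7.27, 7.09 and 7.26 in placebo glands without tumor and 7.36, 7.09 and 7.23 in tamoxifen glands with tumor. The groups overlapped, and the difference was the smallest of the 7 calls (-0.36 ± 0.088, adjusted p = 0.027). Of the 5 Frizzled genes not called, Fzd1 was at -0.33 ± 0.11 (adjusted p = 0.10; -0.18 without placebo animals 7, 8 and 9) and Fzd4, which also binds norrin, was the member with the highest difference, 0.33 ± 0.12 (adjusted p = 0.13). Group means were 9.44 to 9.77 for Fzd1, 10.2 to 10.5 for Fzd4, 6.70 to 7.10 for Fzd5, 7.48 to 7.56 for Fzd8 and 8.08 to 8.23 for Fzd10. The co-receptor Lrp6 held group means of 9.75 to 9.87.

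The secreted binder Sfrp2, which in many tissues is made by fibroblasts, gave the smallest p of all members. Its lowest, median and highest values were 8.30, 9.40 and 9.86 in placebo glands with tumor and 7.37, 7.76 and 8.12 in tamoxifen glands without. It read 9.37, 8.34 and 8.84 in placebo glands without tumor and 8.59, 8.94 and 8.78 in tamoxifen glands with tumor. The 7 tamoxifen glands that stayed free of tumors lay below all 13 others. Sfrp2 was 2.98-fold lower there than in placebo glands with tumor (-1.57 ± 0.21, adjusted p = 5.2e-04).

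Sfrp1, a related binder, had group means of 8.23 to 8.45 and was not called by its brightest probe set (-0.13 ± 0.082, adjusted p = 0.37). Of its other probe sets, 3 were called lower when every probe set was tested, with differences of -0.32, -0.60 and -0.41. The tested probe sets of this gene thus shared the sign but differed in size and in being called. Sfrp4 (group means 9.44 to 9.61), Sfrp5 (7.92 to 8.12) and Dkk3 (7.47 to 7.69) were not called. Axin2, the feedback target, ranged from 8.56 to 9.09 over the 20 glands, with group means of 8.79 ± 0.18 (SD, n = 7) in placebo glands with tumor, 8.83 ± 0.11 (n = 3) in placebo glands without, 8.80 ± 0.11 (n = 3) in tamoxifen glands with tumor and 8.87 ± 0.17 (n = 7) in tamoxifen glands without. The groups overlapped throughout, and the difference was 0.08 ± 0.083 (adjusted p = 0.64).

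**Figure D2:**
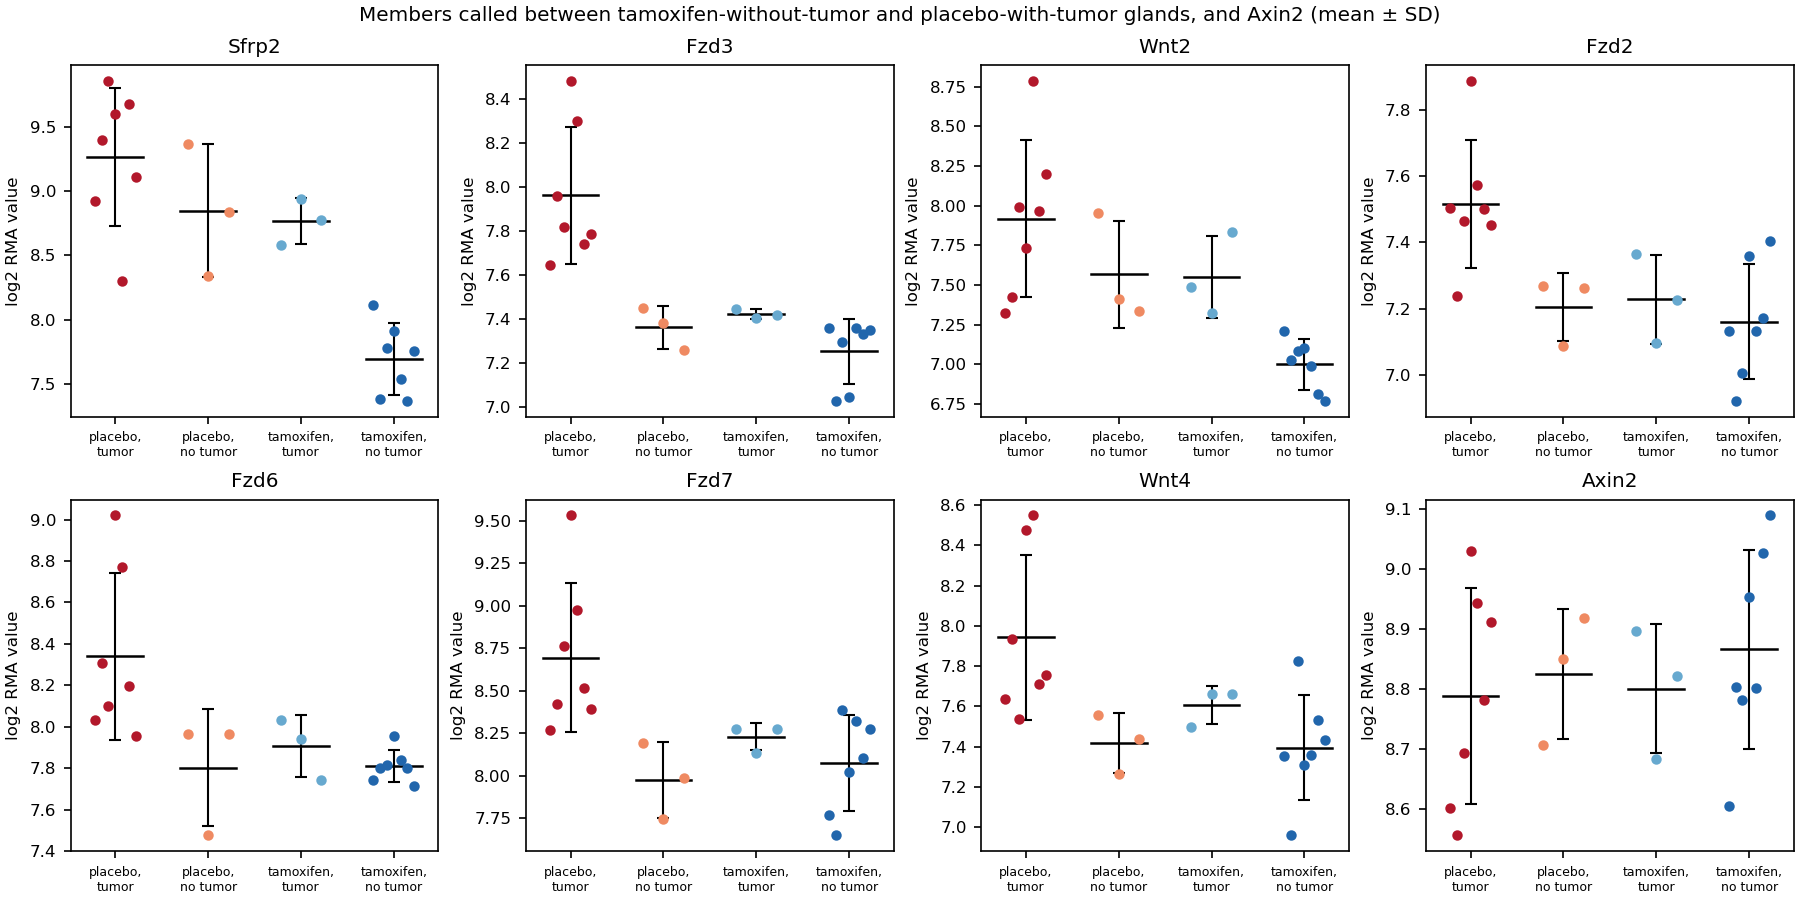
Log2 values of the 7 called members and Axin2 by group, with 1 point per gland and bars at the mean ± SD. Sfrp2, Fzd3 and Wnt2 show no overlap between placebo glands with tumor and tamoxifen glands without tumor, the other 4 called genes do, and Axin2 overlaps in all groups.

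**Figure D3:**
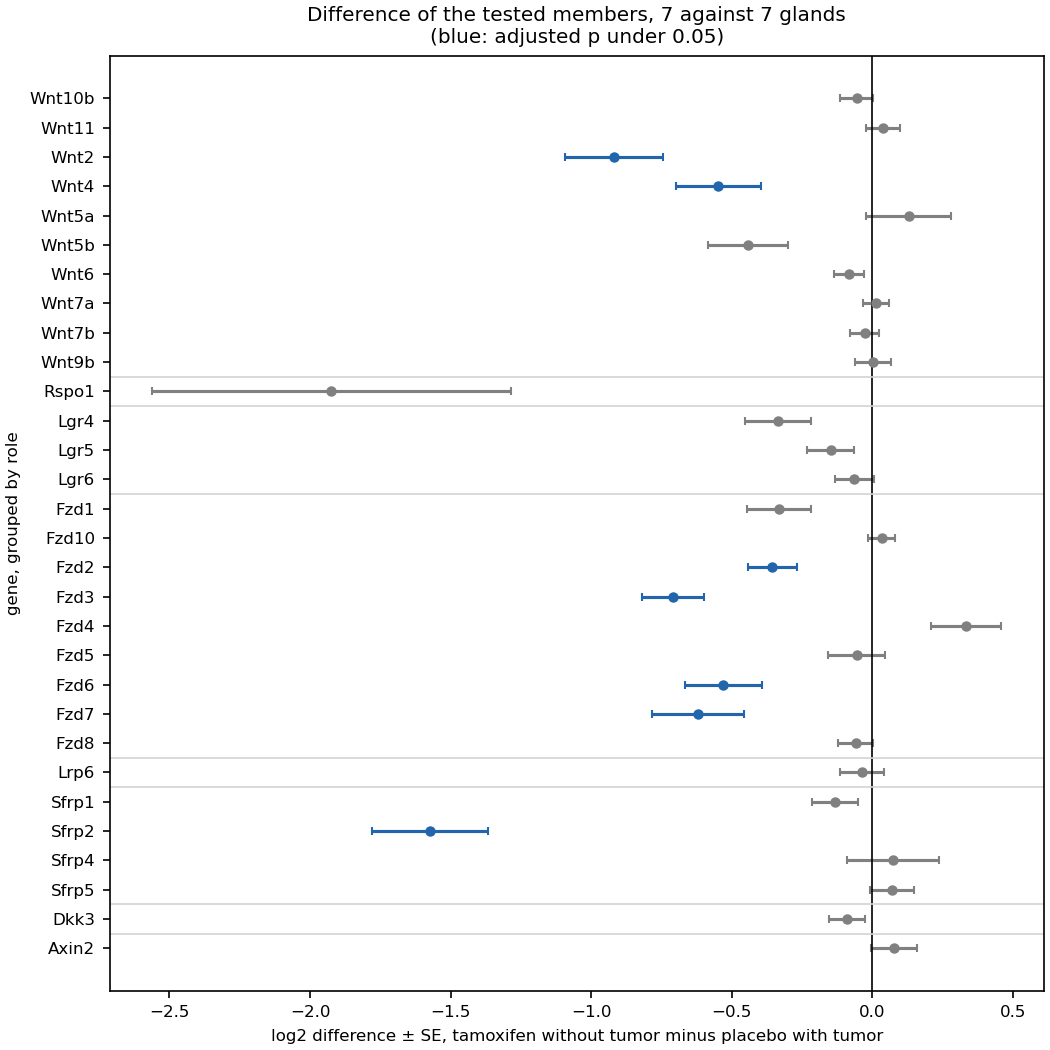
Log2 difference ± SE of the 30 tested members between 7 tamoxifen glands without tumor and 7 placebo glands with tumor, grouped by role. The 7 called genes, in blue, all lie below 0, and Rspo1 has the largest difference and the widest error.

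The groups of 7 did not overlap for 3 members, Sfrp2, Fzd3 and Wnt2, each lower, where 1.13% of all tested genes were lower without overlap. The same 3 genes were the members still called when placebo animals 7, 8 and 9 were left out, with differences of -1.63, -0.55 and -0.74 (adjusted p = 0.0013, 0.0020 and 0.037). In that fit 1.13% of all genes were called. Fzd2, Fzd6, Fzd7 and Wnt4 then gave -0.25, -0.29, -0.39 and -0.32, with adjusted p of 0.22, 0.17, 0.23 and 0.27. Leaving out only placebo 7, placebo 8, tamoxifen 3 or tamoxifen 4 also left these 3 members called, against 2.48%, 2.62%, 2.71% and 2.36% of all genes. With each of the 20 animals left out in turn, Sfrp2, Fzd3 and Wnt2 were called in 20 fits, Fzd2 in 15, Fzd6 in 14 and Fzd7 in 13.

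Markers of luminal epithelium moved in the same comparison: 7 of 7 tested were called lower, with differences from -2.31 to -0.94. The mean over the list ran from 10.00 to 11.4 in placebo glands with tumor, from 8.71 to 9.78 in placebo glands without, from 9.54 to 9.95 in tamoxifen glands with tumor and from 8.75 to 9.89 in tamoxifen glands without. It was 11.3, 11.4 and 10.7 in placebo glands 7, 8 and 9, and 3 of the 7 markers were called without these glands. Of the markers named next, without these glands no basal or fibroblast marker and 1 of 6 muscle markers were called. Among 6 tested basal and myoepithelial markers 1 was called lower, and their mean was highest in placebo glands 7 and 8 (9.76 and 9.42, against at most 8.85 elsewhere). Among 6 fibroblast markers 1 was called lower, and the list ranged from 12.2 to 13.0 in placebo glands with tumor and from 12.3 to 12.8 in tamoxifen glands without. Skeletal muscle markers went the other way, with 4 of 6 called higher and a mean of 5.72 to 8.83 in placebo glands with tumor and of 7.96 to 11.9 in tamoxifen glands without. No marker of white or brown adipocytes, endothelium, B cells or hormone-sensing luminal cells was called. The part of luminal, basal, fibroblast or muscle content in the lower Wnt ligands, Frizzled receptors and Sfrp2 was not tested.

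Rspo1, the R-spondin associated with mammary stem cells, was set by a few glands. It read 10.2 in placebo 7, 9.63 in placebo 8 and 7.58 in placebo 4, and no more than 5.84 in the other 17 glands. All 3 glands came from placebo animals that later developed tumors, but the other 4 glands of that group (5.18 to 5.84) were close to the 3 placebo glands without tumor (5.15 to 5.40). It passed the filter through those 3 arrays alone, and the fitted difference of -1.92 ± 0.64 was not called (adjusted p = 0.088). It was -0.85 ± 0.31 without placebo animals 7, 8 and 9 (adjusted p = 0.24). Wif1, a Wnt-binding inhibitor that was not tested because it exceeded the filter in 2 glands, read 7.46 in placebo 7 and 8.69 in placebo 8 and no more than 6.50 elsewhere.

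Placebo 7 and placebo 8 were the highest of the 20 glands for 9 of 30 tested members, namely Wnt4, Wnt5b, Rspo1, Lgr4, Lgr6, Fzd2, Fzd3, Fzd6 and Fzd7, and for 11.3% of all tested genes. Rspo1 is among the tested members only through placebo 4, 7 and 8, so the filter set its place in this count. Both glands were singled out from these same values, so the count is a description only. Wnt5b read 8.26 and 7.97 there and at most 7.58 in the others. Among the R-spondin receptors, Lgr4 read 9.39 and 9.20 there against at most 9.02, and was not called in the comparison of 7 against 7 (-0.34 ± 0.12, adjusted p = 0.11; -0.24 without placebo animals 7, 8 and 9). Lgr5, known as a stem cell marker in gut epithelium, had group means of 7.28 to 7.43 and a difference of -0.15 (adjusted p = 0.32). Lgr6 moved little by its brightest probe set (group means 7.83 to 8.00; difference -0.06, and 0.01 without placebo animals 7, 8 and 9), but a second, dimmer one read 9.57 and 9.31 in placebo 7 and 8 and at most 7.35 in the others. Tnfsf11, the gene of RANKL, a progesterone target that is not one of the 48 genes, followed the same glands with 7.95 and 7.66 against at most 6.64. It was not tested, because it exceeded the filter in those glands alone. Myc (10.4 and 10.3) and Ccnd1 (10.5 and 11.4), also outside the 48, were highest there too. The hormone receptor genes Pgr (7.91 and 8.20) and Esr1 (9.76 and 9.72) were not, and lay within the range of the other glands. Tnfsf11, Myc and Ccnd1 were named for their values in these glands, from a list of 43 further pathway genes. The TCF/LEF factor Lef1, of the same list, was not highest there (8.91 and 8.99). How many genes of that list were highest there is not given, and 11.3% of all tested genes were.

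**Figure D4:**
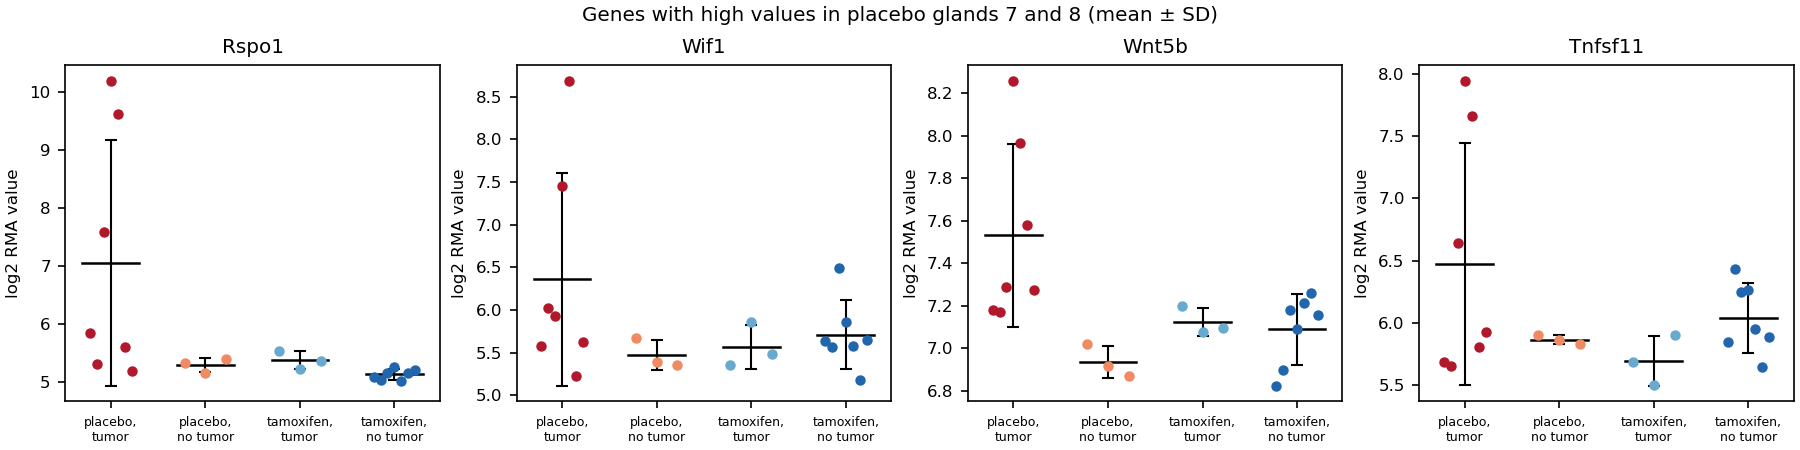
Log2 values of Rspo1, Wif1, Wnt5b and Tnfsf11 by group, with 1 point per gland and bars at the mean ± SD. Placebo glands 7 and 8 carry the 2 highest points of each panel, and in Rspo1 placebo 4 is raised as well.

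The study's own contrast set the 10 glands of animals with later tumor against the 10 without. The first arm held 7 placebo and 3 tamoxifen glands and the second 3 and 7. Treatment was not in the fit, so the differences mix treatment with outcome. With treatment added as a covariate, 0 of all 12499 genes were called. In the fit without treatment, no member was called, against 0.232% of all genes. An unadjusted p under 0.05 was reached by 12 of 30 members and by 2060 of all 12499 genes. These members include Rspo1, which passed the filter only through placebo 4, 7 and 8, all with later tumor. Sfrp2 came closest, with a median of 9.02 (8.30 to 9.86) before tumors and 7.84 (7.37 to 9.37) without. The ranges overlapped, and the difference was 1.08 ± 0.24 (limma, adjusted p = 0.059). Fzd3 had the same adjusted p with a difference of 0.51 ± 0.12, and Wnt2 reached 0.64 ± 0.17 (adjusted p = 0.092). Without placebo animal 3, whose gland had high Sfrp2 and Wnt2 (9.37 and 7.95) and no later tumor, 3 members and 0.672% of all genes were called, the members being Fzd3, Sfrp2 and Wnt2. Leaving out tamoxifen 1, 2 or 10 gave 2 members called, against 0.944%, 0.752% and 0.648% of all genes, and leaving out placebo 6 gave 1, against 0.216%. Without placebo animals 7, 8 and 9 none was called, with 1.04 for Sfrp2, 0.35 for Fzd3 and 0.49 for Wnt2 (adjusted p = 0.15, 0.13 and 0.34).

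Tamoxifen against placebo over all 20 glands likewise called no member, against 0.00800% of genes. An unadjusted p under 0.05 was reached by 9 members and by 1739 of all 12499 genes. Rspo1, which passed the filter through placebo glands alone, is among these members. Sfrp2 was 2.18-fold lower with tamoxifen (-1.13 ± 0.23, adjusted p = 0.065), and Wnt2 and Fzd3 gave -0.65 ± 0.17 and -0.48 ± 0.12 (adjusted p = 0.13 each). Outcome was not in this fit, so these differences mix treatment with outcome. With outcome added as a covariate, 0 of all 12499 genes were called. Treatment and outcome share animals in these 3 comparisons, so they are not independent of each other. Leaving out placebo 6 gave 2 members called, against 0.880% of all genes, and leaving out placebo 5, tamoxifen 2 or tamoxifen 10 gave 1, against 0.472%, 0.176% and 0.240%.

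Within each treatment or outcome, one arm held 3 animals, and no member was called. Between placebo glands with and without later tumor, 0.00800% of genes were called. There, 10 members and 1765 of all 12499 genes had an unadjusted p under 0.05. The members again include Rspo1, which passed the filter through placebo glands with later tumor alone. Fzd3 (0.60 ± 0.14), Wnt11 (-0.30 ± 0.078) and Fzd7 (0.72 ± 0.21) had the smallest p among members, with adjusted p of 0.14, 0.15 and 0.17. Without placebo animals 7, 8 and 9 they gave 0.44, -0.27 and 0.49. Wnt11, a ligand of β-catenin-independent signalling, read 7.47, 7.21 and 7.30 in the 3 placebo glands without tumor and between 6.77 and 7.15 in the 7 with tumor. The placebo groups did not overlap for 4 members, Wnt11 (lower before tumors) and Fzd3, Fzd7 and Wnt5b (higher), against 4.66% of all tested genes. Between tamoxifen glands with and without later tumor, 0.00800% of genes were called. There, 3 members and 262 of all 12499 genes had an unadjusted p under 0.05. Sfrp2 was 2.11-fold higher before tumors (1.07 ± 0.27, adjusted p = 0.52), Fzd5 was at -0.35 ± 0.13 and Wnt2 at 0.55 ± 0.23. The tamoxifen groups did not overlap for 4 members, Sfrp2, Wnt2, Fzd1 and Fzd3, each higher before tumors, against 1.27% of all tested genes.

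Among animals without tumor, tamoxifen against placebo called 0.0640% of genes, and 3 members and 657 of all 12499 genes had an unadjusted p under 0.05. Sfrp2 was 2.23-fold lower (-1.16 ± 0.27, adjusted p = 0.15), Wnt11 was at -0.26 ± 0.078 (adjusted p = 0.44) and Wnt2 at -0.57 ± 0.23 (adjusted p = 0.75). The 7 tamoxifen values of Sfrp2 lay below the 3 placebo values, and leaving out placebo 8, which enters through the shared spread, gave 1 member called, Sfrp2, against 0.120% of all genes. Among animals with tumor, 0% of genes were called (875 at an unadjusted p under 0.05, 6 of them members). Fzd3 (-0.54 ± 0.14), Fzd5 (-0.40 ± 0.13) and Fzd2 (-0.29 ± 0.11) had the smallest p there, each with an adjusted p of 0.70, and without placebo animals 7, 8 and 9 Fzd3 and Fzd5 gave -0.38 and -0.36. Fzd5 read 6.58, 6.86 and 6.65 in tamoxifen glands with tumor and 6.76 to 7.48 in placebo glands with tumor, which overlap.

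The interaction, which asks whether the difference between outcomes differed between treatments, called 0% of genes by limma, with 565 genes and 4 members at an unadjusted p under 0.05. Wnt11 (0.33 ± 0.11), Fzd5 (-0.49 ± 0.19) and Wnt5b (-0.56 ± 0.26) had the smallest p among members, all with an adjusted p of 0.94, and without placebo animals 7, 8 and 9 that of Wnt5b was -0.26. For Sfrp2 the interaction was 0.66 ± 0.38 (adjusted p = 0.94), so the larger outcome difference in tamoxifen animals (1.07) than in placebo animals (0.42) was not a detectable difference between treatments.

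Relations across the 20 glands were examined for 3 pairs, with 100000 permutations and two-sided p. Axin2 and Wnt4 gave r = 0.13 (permutation p = 0.58, adjusted 0.58) and rho = -0.10 (p = 0.66, adjusted 0.86), and without the 2 glands farthest in Axin2 r was 0.33 (permutation p = 0.19). Wnt4 and the progesterone receptor gene Pgr gave r = -0.14 (permutation p = 0.57, adjusted 0.58) and rho = 0.08 (p = 0.73, adjusted 0.86), and without the 2 glands farthest in Wnt4 r was 0.25 (permutation p = 0.32). With group means removed the values of r were 0.38 and -0.29 (permutation p = 0.10 and 0.22). Because Rspo1 in placebo 4, 7 and 8 stands apart from the other 17 glands, values of r over all glands are given for it only among the alternative settings. Among the 17 glands without placebo 4, 7 and 8, a choice made after seeing the data, Axin2 and Rspo1 gave r = -0.22 (permutation p = 0.39, adjusted 0.39) and rho = -0.15 (p = 0.56, adjusted 0.56).

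Of 43 further genes of the pathway, covering intracellular β-catenin components, TCF/LEF factors, targets and alternative receptors, 41 had a probe set and 33 were tested. In the comparison of 7 tamoxifen glands without tumor against 7 placebo glands with tumor, 1 was called higher and 0 lower. Of all tested genes, 4.63% were called there, so the list was not called more often than genes at large. In the other 7 comparisons none was called, against at most 0.232% of all genes. The called gene was Lef1, a TCF/LEF factor that T cells also express, with a lowest, median and highest value of 8.78, 9.09 and 9.32 in placebo glands with tumor and 9.37, 9.81 and 10.5 in tamoxifen glands without. These 2 groups did not overlap, and Lef1 was 1.60-fold higher in the tamoxifen glands (0.68 ± 0.14, adjusted p = 0.012). It read 9.53, 9.58 and 10.0 in placebo glands without tumor and 9.57, 9.61 and 9.70 in tamoxifen glands with tumor. The placebo glands with tumor thus lay below all other glands. All 5 tested T cell markers were also called higher, and their mean ran from 9.05 to 9.55 in placebo glands with tumor and from 9.39 to 10.3 in tamoxifen glands without. It ran from 9.62 to 9.88 in placebo glands without tumor and from 9.73 to 9.78 in tamoxifen glands with tumor. The part of T cells in the Lef1 difference was not tested. Without placebo animals 7, 8 and 9, Lef1 gave 0.53 (adjusted p = 0.16) and 0 of the 5 T cell markers were called. The receptor-like genes Ptk7 and Ror1, which take part in β-catenin-independent signalling, were not called (-0.65 ± 0.20 and -0.64 ± 0.20, adjusted p = 0.070 and 0.072). They are named for their values in placebo glands 7 (8.40 and 8.70) and 8 (8.19 and 7.98), where they read highest, as did 11.3% of all tested genes. They gave -0.21 and -0.33 without placebo animals 7, 8 and 9 (adjusted p = 0.38 and 0.19).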

How the data were processed

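The authors deposited log2 values of 45101 Affymetrix probe sets on 20 arrays, made with RMA per the submitters' processing notes; RMA fits probe sets across all arrays. GEO's platform annotation gave 34958 probe sets 1 gene symbol and 932 several; those were not used. All 48 members matched RefSeq. The brightest of each gene's probe sets over the 20 arrays was kept (18194 genes, 91 probe sets for the members). Genes above 6.85 on at least 3 arrays were tested with limma 3.58.1 in R 4.3.3: 1 fit over the 4 groups gave the 6 group contrasts, and separate fits gave outcome and treatment over all animals. p was adjusted by Benjamini-Hochberg over 12499 genes, with 0.05 as threshold. The fit was tested on simulated data. Correlations used scipy 1.17.1. Depth is not defined for arrays; their number limits the precision.

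The members, lists and tests were chosen with earlier results of these data known. Genes described in full were Wnt4, Rspo1, Axin2, every member called, and the 3 smallest p per comparison; every other member was given by its level. Alternatives covered normalization, filter, probe sets, variance model, blocks, covariates and left-out animals. Replicate numbers were not used as pairs in the main fits. With group means removed, same-number glands correlated above 0.1 in 4 of 10 pairs for treatment numbers (highest r = 0.59). For outcome numbers it was 1 of 10 (highest r = 0.32). What same-number glands share was not tested.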

Additional observations from a re-analysis of the deposited data

Results flagged for a closer look

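Over the 2 groups of 7 animals and the 30 tested members, 60 sets of values were examined for a single animal far from the rest, and 3 were found; chance alone marks about 1 in 20 sets. Lgr6 read 8.18 in tamoxifen animal 5, with the next tamoxifen gland without tumor at 7.95. Sfrp4 read 8.66 in placebo animal 8, with the next placebo gland with tumor at 9.47. Wnt6 read 7.07 in placebo animal 8, with the next gland of that group at 6.88.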

How the results depend on the processing

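In the comparison of tamoxifen glands without tumor against placebo glands with tumor, 7 members and 579 of 12499 genes were called. Under other normalizations, filters, probe set rules and variance models 6 to 8 members were called, and 522 to 663 of all genes tested. These settings include a block of animals numbered 1 to 5 and 6 to 10. Taking the mean of all probe sets gave 6 members and 531 of 10895 genes, with Sfrp1 called, Fzd6 not called and Fzd3 below the filter. Without placebo animals 7, 8 and 9 the count was 3, against 1.13% of all genes. Leaving out each animal in turn gave 3 to 8 members here, and 295 to 846 of all genes. For later tumor against none it gave 0 to 3 members and 1 to 118 genes. For tamoxifen against placebo it gave 0 to 2 and 0 to 110, and among animals without tumor 0 to 1 and 2 to 17. With the replicate number as a block, 12 members were called here (13.2% of all genes). That fit called 2 members for tamoxifen against placebo (1.88%) and 2 for outcome among placebo animals (4.82%). What same-number glands share was not tested. The blocked fit changed no count of called members in the other 5 comparisons. Every called difference kept its sign in each setting run. Correlations with Rspo1 that include placebo 4, 7 and 8 span glands far apart in Rspo1, and no relation is read from them. Axin2 and Rspo1 gave r = 0.26 over all glands and 0.48 with group means removed (permutation p = 0.028, adjusted 0.083). The correlations changed sign without placebo animals 7, 8 and 9: Axin2 and Wnt4 -0.30, Axin2 and Rspo1 -0.25, Wnt4 and Pgr 0.24. Without placebo animals 4, 7 and 8 they were -0.31, -0.22 and 0.27, and without the 2 animals farthest in Wnt4 that with Pgr was 0.25. With single animals left out they ranged from -0.049 to 0.24, 0.061 to 0.34 and -0.23 to 0.028. Both sign changes among these, -0.049 and 0.028, came without placebo animal 7. The cause was not tested.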
